A study of Homo sapiens with 12 samples.

Results

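Cordycepin was added to HEK293 cells without AMPK before stimulation with EGF, and the RNA of these cells was compared with that of the same cells given the solvent and EGF. The comparison rests on 4 of the 12 RNA-seq libraries of the experiment: AMPK KO cordycepin+EGF replicates 2 and 3 against AMPK KO DMSO+EGF replicates 2 and 3, which were taken by their column names. HEK293 is a human embryonic kidney line. The AMPK KO derivative carries CRISPR knockouts of both catalytic subunit genes, PRKAA1 and PRKAA2, and was received from another laboratory. All groups were kept for 24 h in medium with 0.1% serum by the sample labels, while the general methods of the study give a higher share for serum starvation. The compared cells then had 50 min of 25 µM cordycepin, or of DMSO (0.025% by volume), with EGF present for the last 30 min. The EGF concentration was 15 in units given both as nM and as µM in the study, and as µM in the sample labels. AMPK KO cells with DMSO and no EGF (2 libraries) served to sort genes by level. WT HEK293 cells with cordycepin+EGF and with DMSO+EGF (2 libraries each) are set beside the results. WT cells with DMSO and no EGF (2 libraries) entered the gene filter, the fit of all 12 libraries and the plot of mitochondrial tRNA reads. Replicate 1 of every condition had been discarded by the authors and was not analysed here. The supplement of the study calls the HEK293 replicates biological, but does not say whether replicates 2 and 3 came from separate cultures. The p-values measure the spread between these libraries, and how much of it is technical is not known.

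Cordycepin is 3′-deoxyadenosine, an adenosine analogue without the hydroxyl group to which the next nucleotide of an RNA chain is joined. Cells phosphorylate it, and its triphosphate can stop the addition of poly(A) tails to new transcripts, the step that follows cleavage at the 3′ end of a messenger RNA. AMPK is a kinase that senses low cellular energy and has been a proposed target of the drug. Total RNA depleted of ribosomal RNA, as sequenced here, also contains transcripts that carry no poly(A) tail.

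The 4 libraries held 12016743 and 16992013 recovered reads with cordycepin and 13466772 and 13417948 without. Among the other libraries of the fit, WT DMSO replicate 3 (no EGF) was shallow, with 3806335 recovered reads and 1141 genes at 0 reads. It was not left out on its own, so its part in the calls was not tested. Values are RPKM (reads per kilobase of exon, relative to library size) after upper quartile scaling, and fold changes are on the scale of log2(scaled RPKM + 0.5), which understates changes of low genes. PRKAA1 was at 7.26 and 8.68 RPKM with cordycepin and 8.44 and 7.45 without, and PRKAA2 at 5.56 and 7.59 against 6.91 and 6.68. Transcripts of the targeted genes were thus still counted, and their level does not check the knockout. Among markers of HEK293 cells VIM (50.8 to 76.3 RPKM), NEFL, KRT18 and KRT8 were present, whereas PAX2 stayed under 0.851 RPKM and NEFM under 0.174. Of 11 markers of blood, connective tissue, vessel and liver cells 4 were listed, and their summed level was 1.38 and 1.63 RPKM with cordycepin against 0.747 and 0.806 without. Their part in the results was not tested.

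More genes rose than fell. Of 22067 genes tested, 85 (0.385%) were called higher with cordycepin and 19 (0.0861%) lower at an adjusted p under 0.05. By the threshold of the study, an unadjusted p of at most 0.05 with a log2 fold change of at least 1 in size, 656 (2.97%) passed upward and 87 (0.394%) downward, and 4805 genes had an unadjusted p under 0.05. The genes that rose were mostly scarce: their median level in AMPK KO DMSO cells was 0.998 RPKM, against 3.4 RPKM over all genes tested, and their median log2 fold change was 1.61. Those that fell were more abundant (median 16 RPKM) and moved less (median log2 fold change -0.88). The gene filter averaged all libraries, those with cordycepin included, so some scarce genes may have been tested only because they rose. The constant added before taking logs also limits how far a scarce gene can fall. How much of the contrast in level between rises and falls comes from these settings was not tested. Every one of the 104 calls depended on sharing the spread with the other groups: a fit of only the 4 libraries gave no call (5467 genes at an unadjusted p under 0.05). Nor was there any call without AMPK KO cordycepin+EGF replicate 2 (2901 genes at an unadjusted p under 0.05) or without AMPK KO DMSO+EGF replicate 2 (2737) or 3 (2797). Leaving out cordycepin+EGF replicate 3 left 37 rises and 2 falls.

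In WT cells no gene was called higher (0.0%) and 1 lower (0.00453%) by adjusted p, with 3529 genes at an unadjusted p under 0.05, while 358 (1.62%) and 218 (0.988%) passed the threshold of the study upward and downward. Limma voom on recovered reads called 440 and 338 genes in WT and 762 and 289 in AMPK KO cells. The difference between the effects in AMPK KO and WT cells, tested gene by gene, passed adjustment for no gene (0.0%), with 4716 at an unadjusted p under 0.05 and 1288 higher and 902 lower calls by voom. By the threshold of the study the effect was higher in AMPK KO cells for 1177 genes (5.33%) and lower for 590 (2.67%). Of the 85 rises 75 had the same sign in WT (median WT log2 fold change 0.74), and of the 19 falls 10 did (median WT log2 fold change -0.04).

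Transcript classes were then compared (gene types of the annotation). Long non-coding RNAs (lncRNAs), loci of the class TEC (transcribed loci that await experimental evidence) and most short non-coding classes had higher medians than protein-coding genes. Mitochondrial tRNAs stood at the other end. The 12809 nuclear protein-coding genes had a median log2 fold change of -0.03 (-0.07 and 0.00 in cordycepin replicates 2 and 3), the 4573 lncRNA genes 0.27 (0.41 and 0.14) and all genes tested 0.06. DMSO+EGF replicates 2 and 3 differed by a median of -0.04 over the lncRNA genes. Both cordycepin libraries were thus above the controls over lncRNAs, but replicate 2 much more than replicate 3.

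At the threshold of the study 249 lncRNA genes (5.45%) passed upward and 27 downward, against 184 (1.44%) and 14 protein-coding genes. The lncRNA genes were scarcer, and the classes were closer among the scarcest genes. Among genes under 0.5 RPKM in AMPK KO DMSO cells 11.2% of lncRNA genes (median 0.43) and 10.5% of protein-coding genes (median 0.45) passed upward, at 0.5 to 2 RPKM 5.72% and 4.39% (medians 0.30 and 0.26), and at 2 to 5 RPKM 3.90% and 0.88% (medians 0.23 and 0.10). Genes in the lowest of these bins were tested only because other groups, cordycepin groups among them, were higher. Their shares upward can therefore be raised by the filter. The 336 TEC loci had a median of 0.28 with 21 upward and 1 downward. Transcribed unitary pseudogenes (genes that lost their coding function in humans) had a median of 0.41 over 48 genes, of which 6 (12.5%) passed upward. The 2543 processed pseudogenes, intronless copies of mRNAs, had a median of 0.05, close to that of all genes, although 102 passed upward and 21 downward. In read terms, lncRNA and TEC genes together took 6.29% and 4.63% of reads with cordycepin and 4.17% and 4.48% with DMSO+EGF, and AMPK KO cells without EGF had 4.68% and 4.28%. Cordycepin replicate 3 thus lay within the range of the 4 controls, and replicate 2 alone stood above it.

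**Figure D1:**
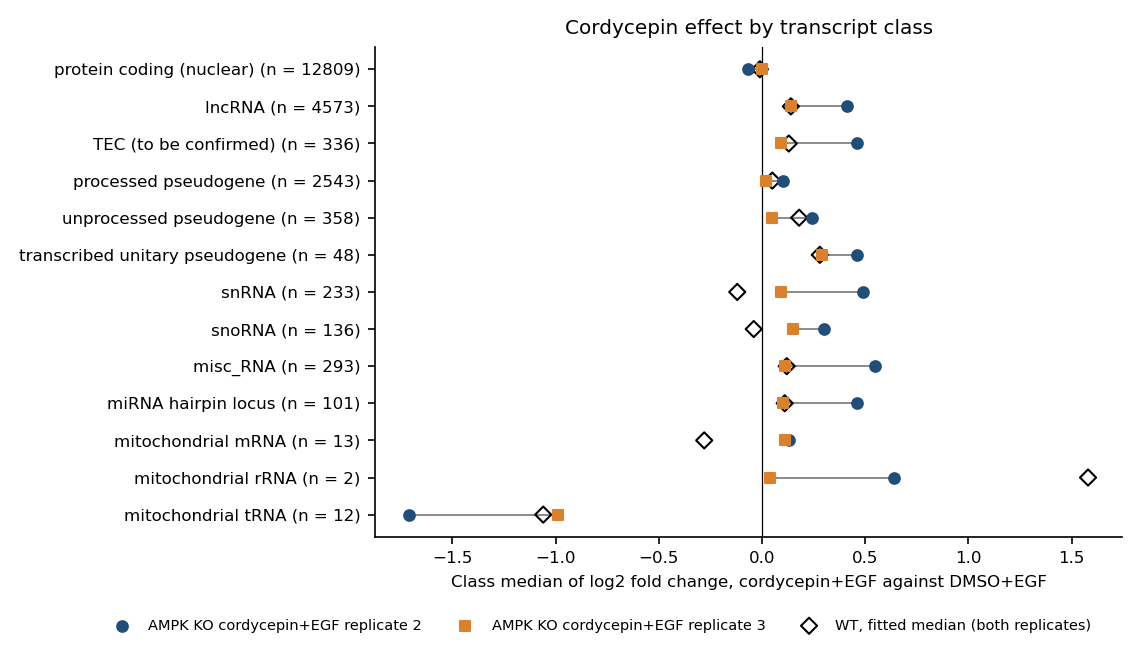
Class medians of the log2 fold change of cordycepin+EGF against DMSO+EGF, with AMPK KO replicate 2 (circles) and replicate 3 (squares), each against the mean of the 2 control libraries, and the fitted WT median (diamonds); n is the number of genes tested. Mitochondrial tRNA genes lie at -1.71 and -0.99, lncRNA genes at 0.41 and 0.14, and protein-coding genes at -0.07 and 0.00.

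The higher median of lncRNAs did not belong to a single naming class. Medians were 0.22 for 269 divergent transcripts named after their neighbour, 0.24 for 746 antisense transcripts, 0.28 for 214 intergenic LINC genes, 0.30 for 33 microRNA host genes, 0.24 for 24 snoRNA host genes named SNHG and 0.29 for 3044 lncRNAs without a name. Position separated them more. The 261 lncRNAs that start within 10 kb past a protein-coding gene on the same strand had a median of 0.50 (0.59 and 0.36 in the replicates), and 35 of them (13.4%) passed upward. Divergent lncRNAs had 3.76%, antisense lncRNAs 4.68% and lncRNAs inside a gene on its own strand 4.53% passing upward.

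HCG14, a lncRNA gene in the extended major histocompatibility region (chr6:28896530-28897322, GRCh38, plus strand), showed the largest rise among genes named. It was at 7.85 and 5.09 RPKM with cordycepin and at 0.174 and 0.174 RPKM with DMSO+EGF. Both cordycepin libraries stood far above both controls, which held 1 read each against 46 and 39. This was a log2 fold change of 3.34 with an SE of 0.291 (adjusted p 0.00736). The ratio of reads, scaled to the recovered depth of the libraries, was 39.4 with an exact 95% counting interval of 10.6 to 331. In AMPK KO cells without EGF it was at 0.627 and 1.15 RPKM, and in WT its log2 fold change was 1.22 (adjusted p 0.256).

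LINC02226, an intergenic lncRNA gene (chr5:8333481-8457558, minus strand), was the only lncRNA called lower. It had 15.2 and 14.1 RPKM with cordycepin against 45.1 and 51.9 with DMSO+EGF, and 342 and 416 reads against 998 and 1144. Both cordycepin libraries lay below all AMPK KO controls, including 34.4 and 30.8 RPKM without EGF. This was a log2 fold change of -1.69 with an SE of 0.238 (adjusted p 0.0338), beside -2.03 (adjusted p 0.101) in WT.

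The region before the start of each gene is shown because HCG14 had the highest log2 fold change of the lncRNAs and LINC02226 was the one called lower. The 250 bases before the RefSeq start (GRCh38.p14) were chr6:28896280-28896529 for HCG14 on the plus strand and chr5:8457565-8457814 for LINC02226 on the minus strand, printed 5′ to 3′ with motifs in capitals.
HCG14: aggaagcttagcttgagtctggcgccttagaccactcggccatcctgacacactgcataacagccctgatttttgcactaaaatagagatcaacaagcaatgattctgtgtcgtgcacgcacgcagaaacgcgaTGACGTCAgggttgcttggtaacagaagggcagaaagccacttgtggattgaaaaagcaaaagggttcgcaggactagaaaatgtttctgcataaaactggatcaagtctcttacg
LINC02226: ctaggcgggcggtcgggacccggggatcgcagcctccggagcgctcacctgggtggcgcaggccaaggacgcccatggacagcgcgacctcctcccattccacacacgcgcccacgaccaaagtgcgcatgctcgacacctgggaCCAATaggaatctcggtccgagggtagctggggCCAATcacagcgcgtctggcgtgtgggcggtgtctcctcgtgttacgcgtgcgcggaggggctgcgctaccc
Both windows were searched on both strands for the TATA box as TATAAA, the CAAT box as CCAAT and the cyclic AMP response element as TGACGTCA. The HCG14 window held 1 cyclic AMP response element and the LINC02226 window 2 CAAT boxes. Over 35116 RefSeq promoters of the same length 1.65% held the response element, 32.0% a CAAT box and 10.7% a TATA box. No motifs overlapped, and a match is a description of letters only.

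Some other lncRNAs that rose were more abundant than HCG14 in the DMSO+EGF libraries. MIF-AS1, which lies antisense to MIF (a gene not analysed here), was at 6.69 and 6.91 RPKM against 1.89 and 1.61 (log2 fold change 1.70, SE 0.175, adjusted p 0.0138). SGSM3-AS1 was at 7.74 and 6.22 RPKM against 1.93 and 1.86 (log2 fold change 1.64, adjusted p 0.0265), and NFYC-AS1 at 10.8 and 9.74 RPKM against 4.44 and 4.25 (log2 fold change 1.15, adjusted p 0.026). In none of the 3 did the groups overlap, as was so for 32.2% of all genes upward and 27.0% downward. NEAT1, the RNA that scaffolds paraspeckles in the nucleus, was at 33.0 and 30.8 RPKM against 15.8 and 15.5. Its log2 fold change of 1.01 did not pass adjustment (adjusted p 0.155), and in WT it was -1.05 (adjusted p 0.267).

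The genes that rose were next examined by their place along the chromosome. Cleavage at the poly(A) site precedes the end of transcription, so RNA polymerase normally runs on for some distance past a gene. Genes under 5 RPKM in AMPK KO DMSO cells that overlapped no listed protein-coding gene (6459 genes) were sorted by their distance from a protein-coding gene with at least 10 RPKM in the same cells. These cut-offs were chosen after the values had been seen. The 406 genes that lay within 3 kb past the 3′ end of such a neighbour had a median log2 fold change of 0.54 (0.65 and 0.47 in replicates 2 and 3), and 357 of them were above 0. At the threshold of the study 86 (21.2%) passed upward and 1 downward, beside 308 (4.77%) and 28 of the 6459, and 21 rose at an adjusted p under 0.05.

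In AMPK KO cells genes near the other end of expressed neighbours had lower medians. The 318 genes within 3 kb of a start, with no expressed 3′ end within 30 kb, had a median of 0.14, and 6 (1.89%) passed upward. The 4459 genes with neither within 30 kb had a median of 0.15, and 130 (2.92%) passed upward. DMSO+EGF replicates differed by a median of -0.01 over the 406 genes. The controls thus had little net offset, which does not measure their spread gene by gene. In WT the ends were closer: the median over the 406 genes was 0.34, with 38 passing upward and 2 downward, and over the 318 genes near a start it was 0.29, with 19 and 2. Over lncRNA and TEC genes the WT medians were 0.53 past 3′ ends and 0.43 near starts.

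**Figure D2:**
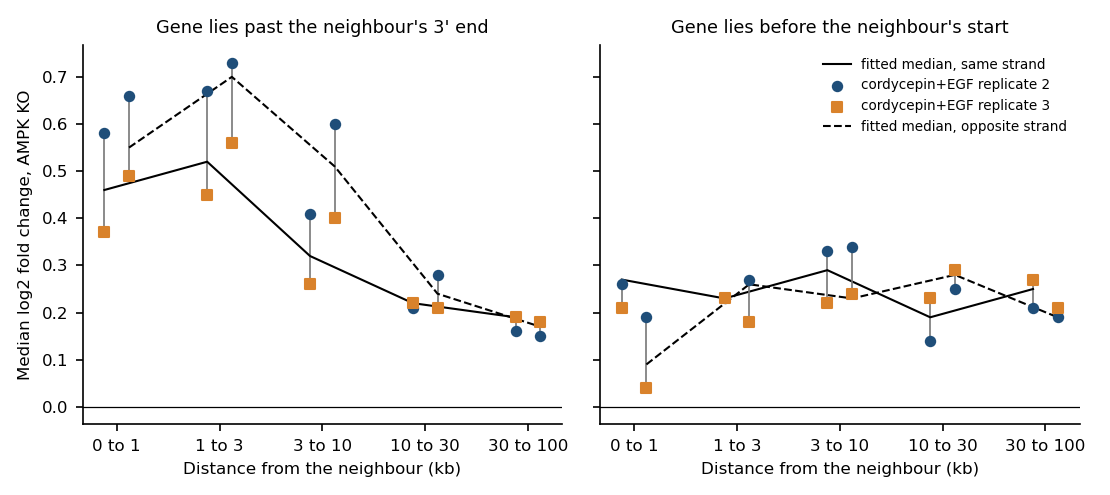
Median log2 fold change in AMPK KO cells of scarce genes by their distance (kb) from a protein-coding neighbour with at least 10 RPKM, past its 3′ end (left) and before its start (right), with lines for the fitted median on the same (solid) and opposite (dashed) strand and points for cordycepin replicates 2 (circles) and 3 (squares). Medians past the 3′ end are 0.46 to 0.70 within 3 kb and 0.17 to 0.19 at 30 to 100 kb, and those within 1 kb before a start on the opposite strand are at 0.09.

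Medians were lower at greater distances. On the neighbour's strand the median was 0.46 within 1 kb (78 genes), 0.52 at 1 to 3 kb, 0.32 at 3 to 10 kb, 0.22 at 10 to 30 kb and 0.19 at 30 to 100 kb, where 19.2%, 17.7%, 8.33%, 5.36% and 3.65% passed upward. On the opposite strand the medians were 0.55, 0.70, 0.51, 0.24 and 0.17. The libraries were stranded, but whether reads were counted by strand is not given in the sources used here, so reads of a gene cannot be told apart from those of a neighbour on the other strand. Within 3 kb on the opposite strand the median was 0.29 past genes under 1 RPKM, 0.41 at 1 to 10, 0.59 at 10 to 50 and 0.71 past genes of 50 RPKM or more (30 genes). On the same strand the corresponding medians were 0.36, 0.44, 0.52 and 0.44 (22 genes in the last).

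Each gene type had a higher median there. Past expressed 3′ ends the median was 0.77 over 87 lncRNA and TEC genes, of which 30 (34.5%) passed upward, 0.45 over 272 scarce protein-coding genes (40 genes, 14.7%) and 0.83 over 40 pseudogenes (13 genes, 32.5%). With no expressed neighbour end within 30 kb the shares were 5.76%, 1.27% and 4.38%. The 406 genes made up 1.84% of the genes tested, 24.7% of the rises at an adjusted p under 0.05 (21 of 85) and 13.1% of those past the threshold of the study (86 of 656). They could come only from the 6459 scarce genes without overlap, which is the closer comparison. Among those 6459 genes they held 21 of 50 rises at an adjusted p under 0.05 and 86 of 308 past the threshold. Some of the scarcest may have been tested only because they rose with cordycepin. Of the 85 rises, 32 overlapped a listed protein-coding gene and were not sorted by distance. The 406 genes took 0.546% and 0.451% of reads with cordycepin and 0.323% and 0.324% with DMSO+EGF, and cells without EGF had 0.344% and 0.342%. Both cordycepin libraries were above all 4 AMPK KO controls.

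The expressed neighbours themselves resembled other abundant genes. Over 410 of them the median log2 fold change was -0.20, with 335 below 0, beside -0.24 over all 4263 protein-coding genes with at least 10 RPKM. None of the 410 rose at an adjusted p under 0.05 or passed the upward threshold.

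Several of the largest rises were genes of this kind. The TEC locus ENSG00000279273, 1241 bases past NPTX1 on the same strand, was at 4.15 and 2.74 RPKM with cordycepin and 0.301 and 0.437 with DMSO+EGF (log2 fold change 2.16, adjusted p 0.0138). LINC01730, 2236 bases past the cell cycle phosphatase gene CDC25B, was at 6.27 and 3.90 RPKM against 0.85 and 1.20 (log2 fold change 1.85, adjusted p 0.0332). In both the groups were well apart, and replicate 2 was above replicate 3.

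On the opposite strand, the lncRNA ENSG00000233538 ended 378 bases from the 3′ end of NCL, which encodes nucleolin (101 RPKM). It was at 9.81 and 8.36 RPKM against 2.02 and 2.41 (log2 fold change 1.82, SE 0.194, adjusted p 0.0154). RPL15P4, a processed pseudogene 1526 bases past the RNA helicase gene DDX39B, was at 9.97 and 7.53 RPKM against 1.36 and 1.37 (log2 fold change 2.30, adjusted p 0.0301), although reads from RPL15 copies could be shared. COL8A2, a collagen gene 1307 bases past ADPRS, was at 2.54 and 2.01 RPKM against 0.169 and 0.247 (log2 fold change 1.97, adjusted p 0.00736). Tissue-restricted genes of this group also included PLPPR3 (161 bases past PTBP1, log2 fold change 1.59) and C1QL4 (678 bases past TROAP, log2 fold change 1.51).

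Not all rises had such a neighbour. RAB26, which encodes a small GTPase of secretory vesicles, had no listed protein-coding 3′ end within 20 kb and was at 19.3 and 14.3 RPKM against 3.57 and 3.82 (log2 fold change 2.03, SE 0.166, adjusted p 0.00736). TLCD1, a plasma membrane protein gene that overlaps another gene, was at 22 and 17.4 RPKM against 6.33 and 6.20 (log2 fold change 1.57, SE 0.132, adjusted p 0.00736). Both were the more abundant of the genes that rose, and their cordycepin libraries lay above all controls. SNX32, a sorting nexin gene that also overlaps a neighbour, was at 4.37 and 3.29 RPKM against 0.437 and 0.496 (log2 fold change 2.15, adjusted p 0.02).

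**Figure D3:**
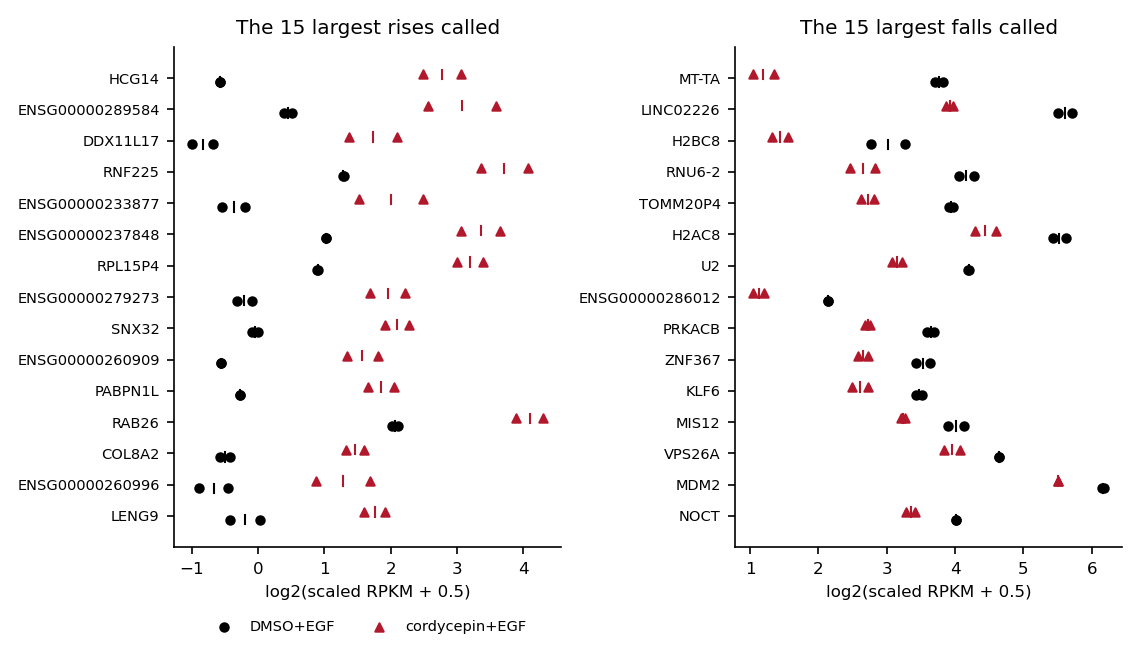
Levels of the 15 largest rises (left) and 15 largest falls (right) among genes with an adjusted p under 0.05, as log2(scaled RPKM + 0.5) in each AMPK KO library with DMSO+EGF (circles) or cordycepin+EGF (triangles), with short bars at the means. No gene shows overlap between the groups, which the rule required, and cordycepin values of genes that rose spread more than those of the controls.

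Among protein-coding genes the sign of the effect followed their abundance. Genes were sorted by their level in AMPK KO DMSO cells, which are not part of the comparison. At 0.5 to 2 RPKM the median log2 fold change was 0.26 (2594 genes, 114 passing upward), at 2 to 5 RPKM 0.10, at 5 to 10 RPKM -0.08, at 10 to 20 RPKM -0.19, at 20 to 50 RPKM -0.28 and at 50 RPKM or more -0.33 (510 genes, of which 36 were above 0). Genes under 0.5 RPKM had a median of 0.45, but they were tested because other groups were higher, since the filter required a mean of 0.5 RPKM over the 12 libraries. Replicate 2 followed this order from 0.5 RPKM down to -0.48 for genes of 50 RPKM or more, and replicate 3 down to -0.21 at 20 to 50 RPKM, with -0.19 in the highest bin. The medians are relative to the upper quartile of each library, so a change shared by all genes would not be seen. In WT cells the same bins had medians between -0.12 and 0.04.

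Medians of lncRNA genes were 0.30 at 0.5 to 2 RPKM, 0.23 at 2 to 5, 0.14 at 5 to 10, 0.18 at 10 to 20 (91 genes) and -0.10 over 43 genes of 20 RPKM or more, of which 4 passed downward and none upward. Between 5 and 20 RPKM replicate 2 was at 0.35 in both bins and replicate 3 at -0.03 and -0.01, whereas at 20 RPKM or more they were at -0.10 and -0.24. In WT the lncRNA medians ran from 0.00 in the lowest bin to 0.27 at 5 to 20 RPKM.

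**Figure D4:**
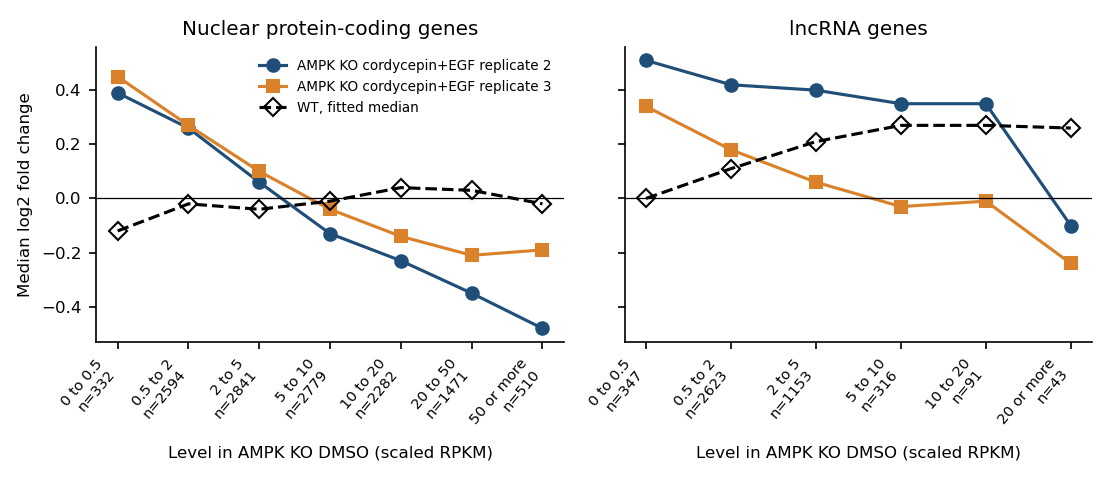
Median log2 fold change by level in AMPK KO DMSO cells (scaled RPKM) for nuclear protein-coding genes (left) and lncRNA genes (right), with AMPK KO cordycepin replicates 2 (circles) and 3 (squares) and the fitted WT median (diamonds); n is the number of genes. Protein-coding medians run from above 0 in the lowest bins to -0.48 and -0.19 in the highest, while WT medians stay between -0.12 and 0.04.

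Mitochondrial tRNAs were the class with the lowest median. The mitochondrial genome is transcribed as long precursors from which tRNAs are cut and matured by addition of a CCA end. All 12 tRNA genes in the file were tested and all had a log2 fold change below 0, with a median of -1.32 (-1.71 and -0.99 in replicates 2 and 3), and the difference between the control replicates had a median of -0.29. At the threshold of the study 7 of the 12 (58.3%) passed downward, beside 0.394% of all genes, and 1 was called at an adjusted p under 0.05. The tRNA values rest on few reads, since short tRNAs are mostly lost from such libraries. The WT median was -1.06, with 5 passing downward.

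MT-TA and MT-TD were named by the rule for classes. MT-TE, MT-TH and the abundant MT-TP were added after their values were seen, and MT-TH fell less than the class median. These tRNA genes are printed 5′ to 3′ from the GRCh38 mitochondrial genome with the anticodon in capitals. They lie at chrM:5587-5655 (MT-TA, alanine, minus strand), chrM:7518-7585 (MT-TD, aspartate, plus), chrM:14674-14742 (MT-TE, glutamate, minus), chrM:12138-12206 (MT-TH, histidine, plus) and chrM:15956-16023 (MT-TP, proline, minus).
MT-TA: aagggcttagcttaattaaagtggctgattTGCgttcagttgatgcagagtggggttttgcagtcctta
MT-TD: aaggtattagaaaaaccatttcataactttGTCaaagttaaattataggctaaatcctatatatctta
MT-TE: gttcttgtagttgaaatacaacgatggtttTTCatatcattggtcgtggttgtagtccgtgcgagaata
MT-TH: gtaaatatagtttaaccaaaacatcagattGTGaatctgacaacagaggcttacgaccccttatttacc
MT-TP: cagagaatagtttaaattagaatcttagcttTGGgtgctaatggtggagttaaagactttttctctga
The genes are 68 or 69 bases long and lie on both strands.

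MT-TA was at 2.04 and 1.56 RPKM with cordycepin and 12.5 and 13.6 with DMSO+EGF, from 2 and 2 against 12 and 13 reads. The log2 fold change of -2.56 (SE 0.359) had an adjusted p of 0.0332. The ratio of control to cordycepin reads, scaled to recovered depth, was 6.74 with an exact 95% counting interval of 2.33 to 26.7. MT-TD had 0 and 2 reads against 17 and 27, a ratio of 23.7 after the same scaling (exact 95% counting interval 6.19 to 202), with an adjusted p of 0.0511. Both genes had clearly separate groups, although a library with 0 reads allows up to 3.

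MT-TH, with more reads, was at 39.8 and 33.6 RPKM against 71.7 and 96.1 (log2 fold change -1.17, adjusted p 0.0672), and MT-TE at 2.04 and 4.69 against 13.5 and 11.5 (log2 fold change -1.83, adjusted p 0.062). Neither passed adjustment, although the groups did not overlap, as was so for 27.0% of all genes downward. MT-TP was the exception, at 517 and 476 RPKM against 468 and 611 (log2 fold change -0.11, adjusted p 0.914).

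The other mitochondrial RNAs did not share the low median. The 13 mitochondrial mRNAs had a median log2 fold change of 0.12 and none was called. MT-RNR1 and MT-RNR2, the mitochondrial ribosomal RNAs targeted by depletion, had 77.5 and 47.7 RPKM against 40.8 and 52.8, and 51.1 and 35.8 against 28.8 and 42.6. Per 100000 reads on mitochondrial mRNAs, the 11 tRNA genes other than MT-TP took 22.7 and 27.8 reads with cordycepin, 68.2 and 66.5 with DMSO+EGF and 77.2 and 69.4 without EGF. These values come from 107 and 170 reads with cordycepin and 257 and 319 with DMSO+EGF, and the 2 cordycepin libraries lay far below the 4 controls. With 2 libraries against 2, the smallest p that an exact permutation test can give is 0.333. WT cells had 31.4 and 45.6 with cordycepin and 70.9 and 76.9 with DMSO+EGF, and counting intervals cover counting error only.

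**Figure D5:**
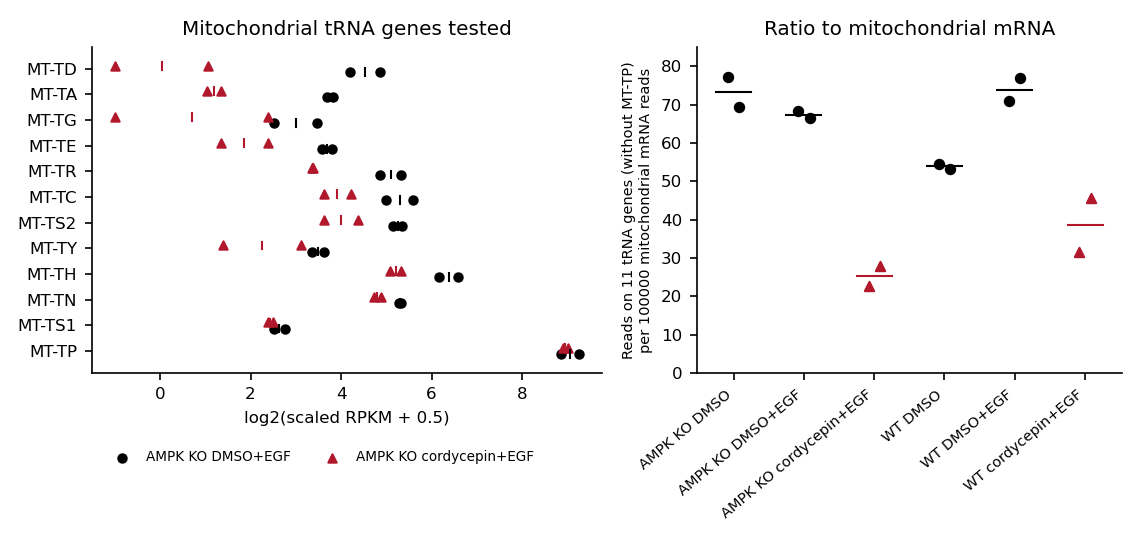
Left, the 12 mitochondrial tRNA genes as log2(scaled RPKM + 0.5) in AMPK KO libraries with DMSO+EGF (circles) or cordycepin+EGF (triangles), with short bars at the means. Right, reads on the 11 tRNA genes other than MT-TP per 100000 reads on mitochondrial mRNAs in each of the 12 libraries, where cordycepin libraries (triangles) lie at 22.7 to 45.6 and all others (circles) at 53.2 to 77.2.

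Nuclear short RNAs had medians above 0. The value was 0.28 over 233 snRNA genes and pseudogenes (21 upward and 7 downward at the threshold of the study), 0.31 over 293 genes of the class misc_RNA, mostly copies of 7SL, 7SK and Y RNAs, 0.29 over 101 miRNA hairpin loci and 0.11 over 136 snoRNA genes. Replicate 2 carried most of this: its medians over snRNA and misc_RNA genes were 0.49 and 0.55, and those of replicate 3 were 0.09 and 0.11. In WT the medians were -0.12 over snRNA, 0.12 over misc_RNA, 0.11 over miRNA and -0.04 over snoRNA genes. No snRNA, snoRNA, miRNA or misc_RNA gene rose at an adjusted p under 0.05. Hairpin loci in such libraries reflect host transcripts and not mature miRNAs, so no miRNA level is given.

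The 2 snRNA genes called were lower. RNU6-2, a copy of the U6 spliceosomal RNA, was at 6.59 and 5.04 RPKM against 18.8 and 16.2 (log2 fold change -1.52, adjusted p 0.0467), from 10 and 10 reads against 28 and 24. A locus annotated as U2 was at 8.86 and 7.91 RPKM against 18 and 17.7 (log2 fold change -1.05, adjusted p 0.0377), from 24 and 28 reads against 48 and 47. U6 and U2 exist in many near-identical copies, so reads may be split between them, and both values are uncertain.

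Protein-coding genes that fell numbered 13, against 43 that rose. H2BC8, a replication-dependent histone gene, was at 2.45 and 1.99 RPKM against 9.09 and 6.34 (log2 fold change -1.58, SE 0.257, adjusted p 0.0469), and its partner H2AC8 at 19.0 and 23.7 against 42.6 and 48.8 (log2 fold change -1.09, SE 0.182, adjusted p 0.049). Their groups did not overlap, although reads of near-identical histone copies may be shared. Histone mRNAs end in a stem-loop and are not polyadenylated in dividing cells. Over 57 histone genes the median was -0.38 (-0.58 and -0.16 in the replicates), 50 were below 0, and these 2 were the only calls. Protein-coding genes of 10 RPKM or more had a median of -0.24 (-0.30 and -0.17), with 3476 of 4263 below 0. The histone median was thus lower than theirs in replicate 2 only.

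H2BC8 and H2AC8 are transcribed away from each other from starts 233 bases apart, so the same stretch precedes both. The 250 bases before the RefSeq start of H2BC8 (chr6:26216689-26216938, GRCh38.p14, minus strand) are printed 5′ to 3′ with the CAAT boxes, on either strand, and the TATA box in capitals.
H2BC8: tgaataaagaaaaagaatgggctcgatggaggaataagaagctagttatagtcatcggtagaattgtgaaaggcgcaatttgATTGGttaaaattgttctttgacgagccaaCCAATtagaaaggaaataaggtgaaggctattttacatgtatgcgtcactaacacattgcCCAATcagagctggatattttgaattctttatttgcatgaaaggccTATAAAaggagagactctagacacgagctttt
The window held 3 CAAT boxes, 1 of them on the other strand, and 1 TATA box that begins 32 bases before the start.

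KLF6, an immediate early transcription factor gene, had the lowest adjusted p among protein-coding falls. It was at 5.11 and 6.11 RPKM against 11 and 10.3 (log2 fold change -0.87, SE 0.12, adjusted p 0.0325), below the 8.54 and 8.82 RPKM of cells without EGF. PRKACB, which encodes a catalytic subunit of protein kinase A, was at 5.94 and 6.28 RPKM against 12.4 and 11.6 (log2 fold change -0.92, SE 0.15, adjusted p 0.0477). MDM2, the ubiquitin ligase gene that restrains p53, was at 44.8 and 44.8 RPKM against 70.5 and 72.3 (log2 fold change -0.67, SE 0.112, adjusted p 0.049). In each of the 3 both cordycepin libraries were below every AMPK KO control.

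NOCT, whose product removes phosphate from nicotinamide dinucleotides, was at 9.26 and 10.2 RPKM against 15.7 and 15.7 (log2 fold change -0.66, adjusted p 0.0389). MIS12, a kinetochore gene, was at 8.71 and 9.16 RPKM against 17.1 and 14.4 (log2 fold change -0.78, adjusted p 0.0494), and ZNF367, a zinc finger gene, at 5.47 and 6.14 against 11.9 and 10.3 (log2 fold change -0.88, adjusted p 0.049). These groups were separate as well. VPS26A of the retromer, POLE3 of DNA polymerase epsilon, PPP2R2A of protein phosphatase 2A, SLC25A46 and ZNF644 completed the falls named, with log2 fold changes from -0.68 to -0.54.

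Gene lists were set beside protein-coding genes of 10 RPKM or more in AMPK KO DMSO cells, whose median was -0.24. The lists were not matched to them by level, and protein-coding genes at 5 to 10 RPKM had a median of -0.08. Of 32 immediate early genes, which EGF and serum induce, KLF6 was the only call, 11 were above 0, and the median was -0.16 (-0.22 and -0.02 in replicates 2 and 3, so replicate 2 carried most of it). EGR1 was at 45.4 and 71.4 RPKM against 106 and 106, and at 2.37 and 2.12 without EGF. Its log2 fold change of -0.89 did not pass adjustment (SE 0.186, adjusted p 0.0644), whereas the WT value of -2.0 did (adjusted p 0.0439). FOS was at 6.75 and 10.2 RPKM against 6.17 and 5.72 (log2 fold change 0.45, adjusted p 0.248), MYC at 5.44 and 11.7 against 11.1 and 9.78 with overlapping groups, and JUN at 29.6 and 39.2 against 45.3 and 44.7 (log2 fold change -0.40, adjusted p 0.157). For FOS the study reported the other direction by RT-qPCR, where cordycepin reduced its induction by EGF in both WT and AMPK KO cells. The cause of this difference was not tested.

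Other lists had medians between -0.48 and 0.21 with few calls. Cell division lists were at -0.30 for 30 mitosis genes (6 above 0) and -0.26 for 30 genes of G1/S and DNA replication (3 above 0), with no gene called in either. Their WT medians were -0.16 and -0.04. Heat shock genes had the lowest median of the lists, -0.48 over 16 genes (2 above 0), while their WT median was 0.14. In this list none was called, and DNAJB1 was at 13.9 and 13.1 RPKM against 24.7 and 26.5 (log2 fold change -0.90, adjusted p 0.146). RNA decay genes were at -0.22 (37 genes), cleavage and polyadenylation genes at -0.20 (24 genes) and ribosomal protein genes at -0.21 (85 genes), near the median of abundant genes and with no call. Replicate 2 carried most of the latter medians, with -0.30 against -0.09 in replicate 3 for cleavage and polyadenylation genes and -0.39 against -0.03 for ribosomal protein genes.

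PAPOLA, the main nuclear poly(A) polymerase gene, was at 32.6 and 38.3 RPKM against 50.5 and 51.0, a log2 fold change of -0.52 that did not pass adjustment (adjusted p 0.103). Targets of p53 had a median of -0.24 over 14 genes, with MDM2 called, and short-lived cell cycle and survival mRNAs, a list that also holds MDM2, -0.19 over 22. Zinc finger genes named ZNF were at -0.06 over 430 genes, with 2 called lower and 3 passing the upward threshold. Genes of the integrated stress response (16 genes, -0.25), oxidative phosphorylation (32 genes, -0.14) and cholesterol synthesis (19 genes, -0.13) had no call. Their WT medians were 0.19, -0.02 and 0.15, and that of the p53 targets was 0.25. Genes that host snoRNAs had a median of 0.21 (18 genes, 0.28 and 0.23 in the replicates) with no call.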

How the data were processed

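The authors sequenced stranded, ribosomal RNA-depleted libraries of total RNA, mapped the reads to GRCh38.p13, used Rsubread for gene counts, and deposited the data as RPKM. The annotation release, the gene filter and the strand setting of the counting are not given in the sources used here. The table listed 26058 genes. Another 2 rows without a gene name were dropped. GENCODE release 44 gave types and positions for 26029 genes. Values were whole multiples of 1 read for 25082 genes (96.25%, within 0.05 reads), and depths are sums over these.

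RPKM was divided by upper quartile factors. Genes averaging at least 0.5 RPKM over 12 libraries (22067) were tested as log2(scaled RPKM + 0.5) with limma 3.58.1 in R 4.3.3 (group means of 12 libraries, eBayes with trend, two-sided, Benjamini-Hochberg adjustment), with 6 residual degrees of freedom and 8.96 after moderation. The fit was tested on simulated data. SE is the moderated standard error. Classes and lists have no test of their own. Genes named were PRKAA1, PRKAA2, HCG14, LINC02226, up to 15 of the largest rises and falls past adjustment that averaged at least 1 RPKM without overlap between groups, the immediate early genes, and up to 2 genes per class or list and direction with the smallest p. Genes named past 3′ ends, MT-TE, MT-TH, MT-TP, the mitochondrial ribosomal RNAs and other genes outside this rule were chosen after their values were seen. The members and lists were chosen with earlier results of these data known. Alternatives were other pseudocounts, filters, scalings, sample sets, a replicate block, eBayes without trend and voom on recovered reads. Each of the 4 compared libraries was also left out in turn.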

Additional observations from a re-analysis of the deposited data

Results flagged for a closer look

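In 5 of the genes that fell in AMPK KO cells both WT libraries with cordycepin lay above both WT controls, the opposite direction. These genes were picked by this pattern. Groups without overlap were common: in AMPK KO cells 32.2% of all genes had them upward, and the share in WT is not given. The effect in AMPK KO minus that in WT was -1.31 for PRKACB, -0.82 for VPS26A, -0.81 for MDM2, -0.76 for NOCT and -1.34 for H2AC8 on the log2 scale. The difference itself did not pass adjustment in any of them (limma, adjusted p 0.122 for each). PRKACB was at 8.09 and 8.51 RPKM with cordycepin and 6.10 and 6.33 with DMSO+EGF in WT, against 5.94 and 6.28 and 12.4 and 11.6 in AMPK KO cells. WT controls were thus near the level of AMPK KO cells with cordycepin. For MDM2 the WT values were 45 and 49.5 against 42.1 and 43.5 RPKM, again near the 44.8 and 44.8 RPKM of AMPK KO cells with cordycepin.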

How the results depend on the processing

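Rises and falls at an adjusted p under 0.05 in AMPK KO cells (85 and 19) depended on the setting. They numbered 44 and 6 with a pseudocount of 0.1, 193 and 41 with no filter, 40 and 5 with a filter at 1 RPKM, 0 and 0 with only the 4 libraries compared, 5 and 4 with only the AMPK KO libraries, 152 and 9 without trend, and 762 and 289 by voom. Leaving out each library, with the lone library assumed to vary like other groups, gave 0 to 37 rises and 0 to 2 falls. At the threshold of the study 656 and 87 genes became 1048 and 138 with a pseudocount of 0.1, 342 rises with a pseudocount of 1, 1389 rises by voom, and 456 to 1033 and 81 to 142 without each library. The median was 0.04 over protein-coding genes by voom, and past 3′ ends 0.67 with a pseudocount of 0.1 and 0.76 by voom. In these settings lncRNA medians stayed between 0.14 and 0.41 and mitochondrial tRNA medians between -1.71 and -0.99.

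In WT, falls at an adjusted p under 0.05 (1) numbered 0 with a pseudocount of 0.1, 2 with a pseudocount of 1, 0 without trend, 0 to 2 without each library and 338 by voom, which also gave 440 rises, and 1288 and 902 genes for the difference between the lines. WT genes past the threshold of the study (358 and 218) numbered 667 and 367 with a pseudocount of 0.1, 175 and 136 with a pseudocount of 1 and 991 and 387 by voom. The cause of these changes was not tested.

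Replicate numbers did not pair the compared libraries: deviations correlated with r = -0.1224. A replicate block gave 73 rises and 19 falls in AMPK KO cells and 0 falls in WT. A crossed replicate block, chosen after seeing the data, gave 50 rises and 3 falls, and 3 falls in WT. None of the 30 largest rises and falls reversed under any setting, and 30 of 30 lost their call with only the 4 libraries compared.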

Other observations

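Genes of adenosine uptake and metabolism, which handle the drug, had a median log2 fold change of 0.07 over 13 genes tested and none was called. SLC29A1, the equilibrative nucleoside transporter through which adenosine analogues enter cells, was at 34.2 and 37.9 RPKM with cordycepin and 19.5 and 19.4 with DMSO+EGF (log2 fold change 0.87, SE 0.283, limma adjusted p 0.133). SLC29A2, a related transporter gene, was at 12.6 and 15.5 RPKM against 9.38 and 9.35 (log2 fold change 0.56, adjusted p 0.094). PNP, the purine nucleoside phosphorylase gene, was at 8.52 and 8.84 RPKM against 12 and 12.9 (log2 fold change -0.50, adjusted p 0.175). In the 3 genes the groups did not overlap, as was so for 32.2% of all genes upward and 27.0% downward.

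Base composition of the longest transcript followed the effect among protein-coding genes. The median log2 fold change was -0.18 over 1200 genes with under 38% GC and 0.11 over 1881 genes with at least 60% GC. Between 10 and 50 RPKM the medians were -0.34 (348 genes) and -0.12 (480 genes), so the order held among genes of similar level, while the WT medians of these bins were -0.02 and 0.21. By content of A, the median was 0.14 over 803 genes under 18% and -0.16 over 2511 genes of 30% or more. GC content, level and gene length move together across genes, and their separate parts were not tested.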
